A study of Mus musculus with 8 samples.

Results

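The collagen genes were examined in the livers of mice lacking SIRT7 and of wild-type mice. A probe set of the array was counted as a collagen probe set when the platform annotation gave it exactly 1 gene symbol made of Col, a type number, the letter a and a chain number. This rule found 58 of the 22626 probe sets tested, which stand for 36 of the 12393 genes that have a probe set with a single symbol. Of the 36 genes, 9 encode fibrillar collagens, 6 encode the type IV collagens of basement membranes and 21 encode other types. A further 8 collagen genes of the lists used here (Col24a1, Col27a1, Col6a4, Col6a5, Col6a6, Col8a2, Col23a1 and Col28a1) had no such probe set and were not analysed here.

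Liver RNA samples, 4 from SIRT7 KO mice and 4 from WT mice, were hybridised to Affymetrix GeneChip mouse expression arrays, 1 array for each sample. SIRT7 is a histone deacetylase, the SIRT7 KO mice lack it in all tissues, and the study used them as a model of nonalcoholic steatohepatitis (NASH) that arises on a chow diet without a disease-inducing diet. Each label names the liver of a mouse of its genotype, but no source used here says outright that each sample of a group came from a different mouse, nor gives the age, sex or array batch, so p-values measure only the spread between these samples, which may be technical. Values are log2 expression as deposited, and differences are SIRT7 KO minus WT on that scale. Sirt7 was at 4.73, 4.53, 4.40 and 4.90 on the SIRT7 KO arrays and at 8.98, 8.97, 8.88 and 8.57 on the WT arrays, a difference of -4.21 (limma, adjusted p = 9.2e-07), as the labels of the arrays say. Array medians ran from 6.30 to 6.36, and arrays of one genotype correlated at 0.989 to 0.996. On the first principal component, which held 28% of the variance, WT array 4 lay at -34.5, apart from the other WT arrays (-11.2 to -2.1), while the SIRT7 KO arrays lay between 4.89 and 23.9.

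Collagens are proteins of the extracellular matrix in which chains wind around each other into a triple helix. Fibrillar types I, III and V form the fibres of scar tissue, type IV forms the sheet of basement membranes, and type VI forms beaded filaments between them. In the liver, stellate cells and portal fibroblasts are known as the main sources of fibrillar collagen in fibrosis, endothelial cells also make type IV collagen, and hepatocytes make type XVIII collagen, whose end is released as endostatin.

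Sequences before or at the annotated starts are shown for the genes whose values the results turn on. They come from RefSeq (GRCm38.p6), each printed 5′ to 3′, and those of Col1a2, Col3a1 and Col18a1 are on the strand of the gene and end at the base before the annotated start. Capitals mark the motifs that were searched for on both strands. The first is the CCAAT box, a common binding site for the factor NF-Y, which is written by its own letters. The second is the GC box, GGGCGG, which is known to bind factors of the Sp1 family in many promoters. The third is the TATA box, TATAAA, at which the general transcription machinery can assemble near the start of a gene. The last is the AP-1 site, TGAGTCA, which binds dimers of the Jun and Fos proteins. Col1a2 and Col3a1 encode chains of the main fibrils, and Col18a1 had values in the opposite direction. Col4a1 and Col4a2 start from opposite strands with overlapping starts, and the 22 bases that they share are shown on the plus strand. These bases run from one annotated start to the other, so they lie inside both genes and not upstream of them. The upstream stretches of Col4a1 and Col4a2 are not shown.
Col1a2, chr6:4505368-4505617, plus strand: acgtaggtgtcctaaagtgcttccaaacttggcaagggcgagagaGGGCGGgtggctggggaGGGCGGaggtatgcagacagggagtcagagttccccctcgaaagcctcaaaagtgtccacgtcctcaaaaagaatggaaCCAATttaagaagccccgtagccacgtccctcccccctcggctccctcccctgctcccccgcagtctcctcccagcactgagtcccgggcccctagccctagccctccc
Col3a1, chr1:45311288-45311537, plus strand: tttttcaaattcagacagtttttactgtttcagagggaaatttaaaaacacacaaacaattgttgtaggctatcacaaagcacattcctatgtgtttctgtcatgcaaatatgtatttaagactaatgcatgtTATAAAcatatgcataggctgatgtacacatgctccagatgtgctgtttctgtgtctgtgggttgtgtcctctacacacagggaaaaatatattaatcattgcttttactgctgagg
Col18a1, chr10:77166531-77166780, minus strand: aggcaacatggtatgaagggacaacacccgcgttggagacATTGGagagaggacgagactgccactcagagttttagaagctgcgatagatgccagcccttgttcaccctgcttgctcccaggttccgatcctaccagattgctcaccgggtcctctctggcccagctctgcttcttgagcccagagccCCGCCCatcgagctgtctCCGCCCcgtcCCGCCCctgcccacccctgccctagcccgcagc
Col4a1 and Col4a2, chr8:11312805-11312826, plus strand: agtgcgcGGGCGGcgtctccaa
The Col1a2 stretch held 1 CCAAT box and 2 GC boxes. The Col3a1 stretch held neither of these and 1 match to the TATA box, near the middle of the stretch and not next to the start. The Col18a1 stretch shown held 1 CCAAT box and 3 GC boxes, whereas the stretch before a second annotated start of Col18a1, which is not shown, held 0 matches to the motifs searched. Upstream stretches of 250 bases were at hand for 27 of the 36 collagen genes (30 stretches, since some genes have more than 1 start). Col1a1, Col2a1, Col5a2, Col4a3, Col9a3, Col12a1, Col14a1, Col22a1 and Col26a1 had no entry. Of the 30 stretches, 16 (53.3%) held a GC box, against 32.7% of all 32851 stretches of the same length, and 12 (40.0%) held a CCAAT box, against 33.8%. A TATA box was in 5 (16.7%, against 12.4%), and an AP-1 site in 1 (3.33%, against 4.46%), that of Col6a1. These matches describe letters only, and nothing was measured about the binding of any factor.

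The first question was which collagen genes differed between SIRT7 KO and WT livers. Across the family, 1 of 58 probe sets passed the threshold, an adjusted p under 0.15, and it was a probe set of the basement membrane chain Col4a1, higher in SIRT7 KO livers by 0.60 ± 0.13 (SE, n = 4 arrays each). Of all probe sets tested, 975 (4.31%) passed. When each gene was taken by its brightest probe set, 0 of 36 collagen genes passed in limma, against 576 of 12393 genes (4.65%), of which 269 (2.17%) were higher and 307 (2.48%) lower in SIRT7 KO livers. The lowest adjusted p among the 36 was 0.172. At an unadjusted p under 0.05 there were 8 collagen genes, against 1937 of all genes (15.6%). Of these 8, the difference was positive in Col1a1, Col1a2, Col4a1, Col6a1, Col6a2, Col6a3 and Col12a1 and negative in Col18a1. The 4 SIRT7 KO values all lay above the 4 WT values in 1 of the 36 genes (Col6a1), which holds for 4.10% of all genes, and all below them in 1 (Col18a1), which holds for 5.70% of all genes. The difference was positive in 21 of 36 collagen genes (58.3%, median 0.0721), against 49.3% of all genes (median -0.00306).

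**Figure D1:**
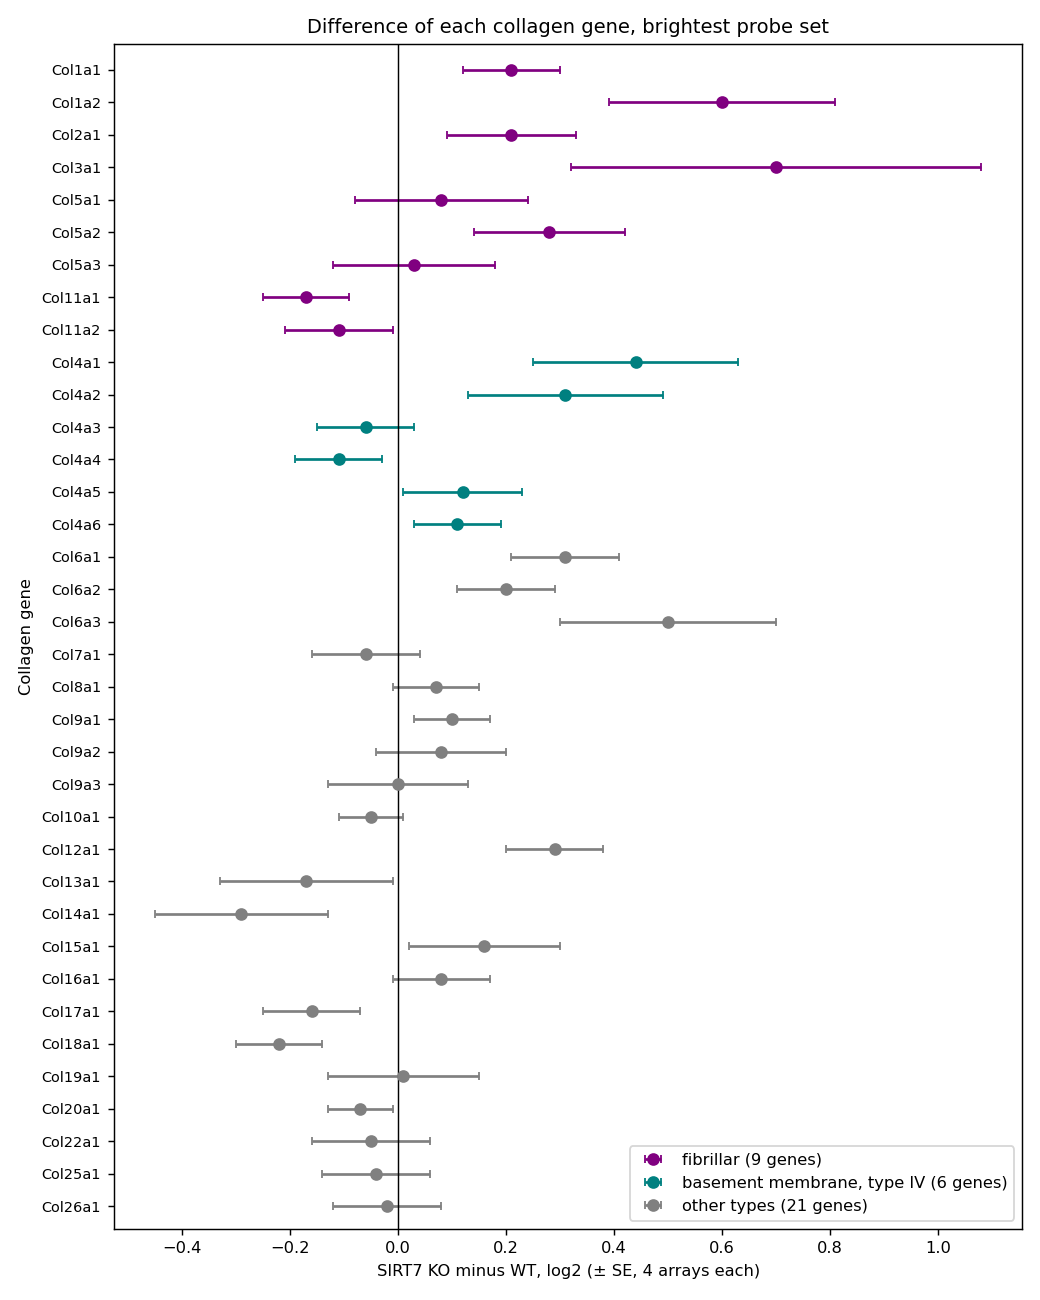
The difference of SIRT7 KO minus WT in log2 expression (x axis, with the SE of the model, 4 arrays each) is drawn for the brightest probe set of each of the 36 collagen genes, coloured by class. The points run from -0.29 for Col14a1 to 0.70 for Col3a1, the positive end is held by Col3a1, Col1a2 and Col6a3, and 0 of the 36 passed an adjusted p of 0.15.

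The differences were also read against the brightness of the signal. The brightest probe set of 12 genes had a mean over the 8 arrays of more than 6.35, which was the median over the means of all probe sets, and the same 12 were above it by their higher group mean. Of those 12, 9 had a positive difference, with a median of 0.241, against 42.2% of the 6923 genes whose mean over the 8 arrays met the same limit (median -0.032). Among the 24 dimmer collagen genes, 12 differences were positive, and their median was 0.00399. In 13 of the 24, both group means lay below 4.56, the lower quartile of all probe set means. The deposited values hold no detection call, so an expressed gene at that level cannot be told from background. As these are whole livers, more or fewer cells of a type and more or less RNA in each cell cannot be told apart.

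**Figure D2:**
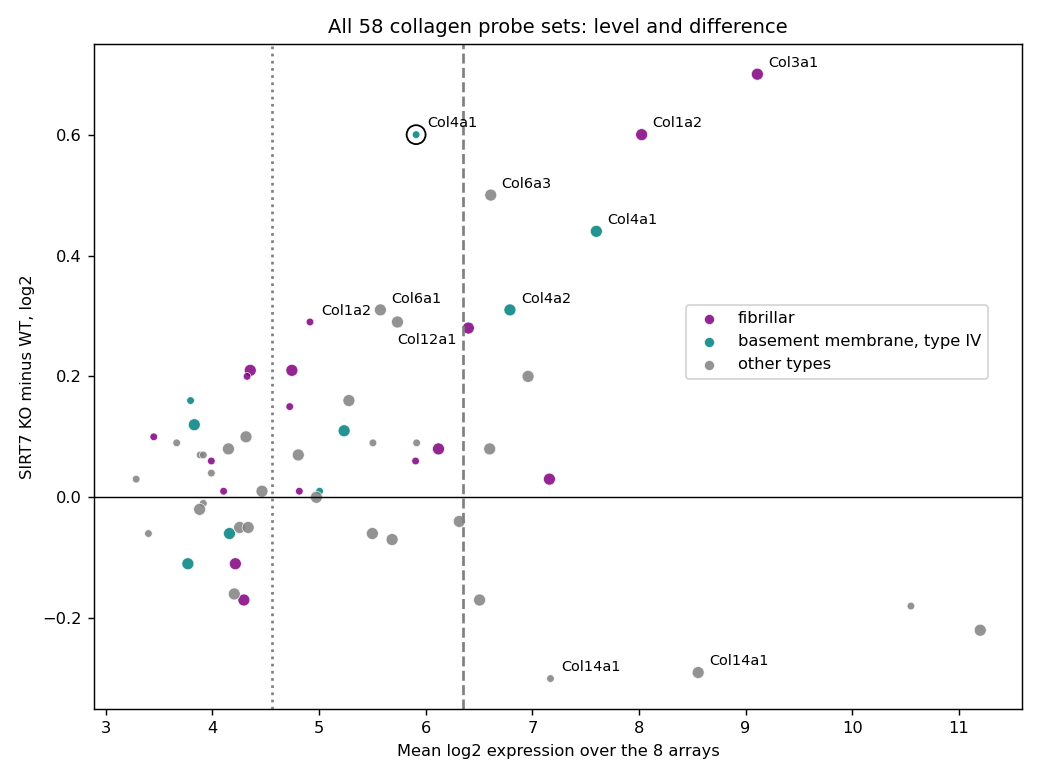
Each of the 58 collagen probe sets is placed by its mean log2 expression over the 8 arrays (x axis) and its difference of SIRT7 KO minus WT in log2 (y axis), with large points for the brightest probe set of a gene and small points for further ones. Dotted and dashed lines mark the lower quartile (4.56) and the median (6.35) of all probe set means, the ring marks the Col4a1 probe set that passed the threshold, and names are printed where a difference exceeded 0.28 in size.

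Among the fibrillar chains, 7 of 9 genes had a positive difference (median 0.21, from -0.17 to 0.70) and 0 passed the threshold. Col3a1, the single chain of type III collagen, was at 9.84, 9.41, 9.47 and 9.11 in SIRT7 KO livers and at 8.40, 9.64, 9.33 and 7.67 in WT livers. The SIRT7 KO arrays lay close together, whereas WT arrays 2 and 3 reached their level and WT arrays 1 and 4 lay well below. The difference was 0.70 ± 0.38 (SE), a 1.62-fold ratio, with an adjusted p of 0.45. It was 0.34 without WT array 4 and 0.99 without WT array 2. The dimmer Col3a1 probe set gave 0.15 ± 0.19.

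Col1a2, which encodes the second chain of type I collagen, was at 8.66, 8.07, 8.45 and 8.12 in SIRT7 KO livers and at 7.49, 8.18, 7.97 and 7.25 in WT livers. WT array 2 overlapped the lower SIRT7 KO arrays, and WT arrays 1 and 4 were again the lowest. The difference was 0.60 ± 0.21, 1.52-fold, with an adjusted p of 0.225, and it stayed between 0.45 and 0.76 when each array was left out in turn. Its other probe set gave 0.29 ± 0.14. Col1a1, the partner chain, was dim on these arrays, with 4.46, 4.37, 4.63 and 4.41 in SIRT7 KO livers and 4.32, 4.24, 4.05 and 4.40 in WT livers. Both of its probe sets lay in the lower quartile of brightness, with differences of 0.21 ± 0.09 (adjusted p = 0.323) and 0.20 ± 0.07 (adjusted p = 0.221), and in the second of them all 4 SIRT7 KO values lay above the 4 WT values. When the probe sets of each gene were averaged on each array in place of taking the brightest, Col1a1 passed, with a difference of 0.21 and an adjusted p of 0.127.

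Type V collagen is a minor component of the same fibres, within which it is known to limit their width. Col5a2 was at 6.93, 6.22, 6.55 and 6.46 in SIRT7 KO livers and at 6.37, 6.32, 6.25 and 6.10 in WT livers, a difference of 0.28 ± 0.14 (adjusted p = 0.395). SIRT7 KO array 2 lay among the WT arrays and the other 3 above them, and without SIRT7 KO array 1 the difference was 0.15. The dimmer Col5a2 probe set gave 0.06 ± 0.06. Col5a3 was at 7.21, 7.15, 7.15 and 7.17 in SIRT7 KO livers and at 7.31, 7.08, 7.49 and 6.71 in WT livers. Here the SIRT7 KO arrays sat inside the wider range of the WT arrays, and the difference was 0.03 ± 0.15, changing sign to -0.12 without WT array 4. The dimmer Col5a3 probe set gave 0.01 ± 0.10. Col5a1 gave 0.08 ± 0.16. The cartilage chains Col2a1, Col11a1 and Col11a2 had brightest probe sets with means of at most 4.85 in SIRT7 KO livers and at most 4.64 in WT livers, with differences of 0.21, -0.17 and -0.11.

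**Figure D3:**
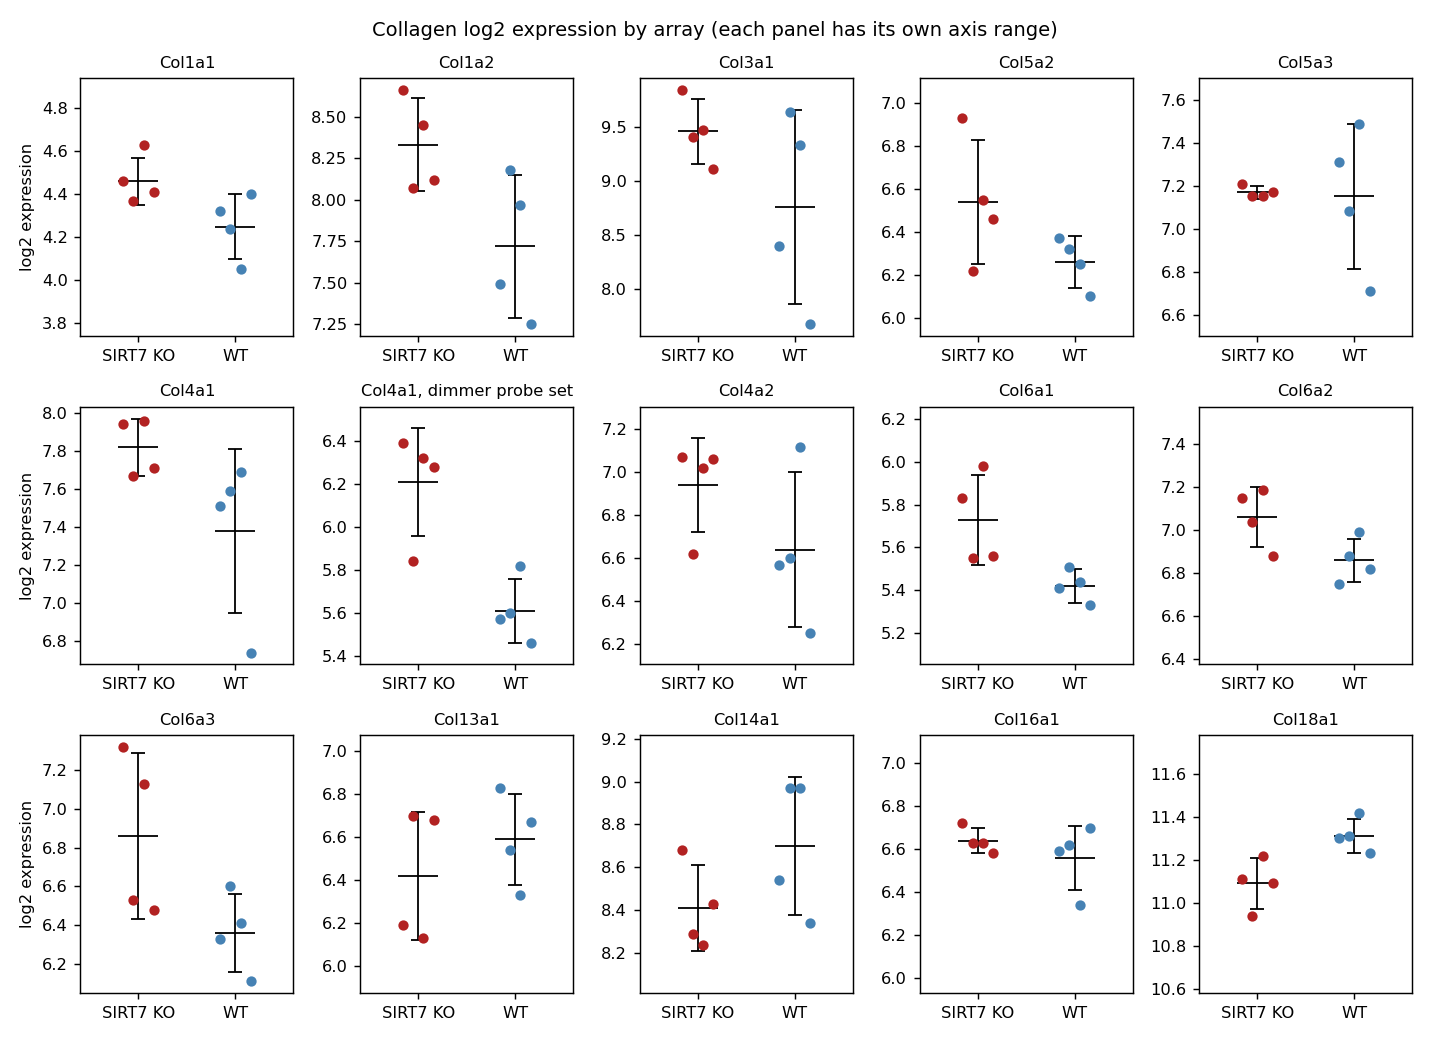
Log2 expression on each array is plotted for 15 collagen probe sets, SIRT7 KO arrays in red and WT arrays in blue, from array 1 on the left to array 4 on the right within a group, with the group mean and SD as black bars and a separate axis range for each panel. In Col3a1, Col1a2 and both Col4a1 probe sets WT array 4 is the lowest array, and the dimmer Col4a1 probe set, Col6a1 and Col18a1 show no overlap between the groups.

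The basement membrane class holds the 6 chains of type IV collagen, and 4 of 6 had a positive difference (median 0.118). Col4a1 and Col4a2, which join into the form of type IV collagen found in nearly all basement membranes, were the only chains of this class above the median brightness. The dimmer Col4a1 probe set (1426348_at) was at 6.39, 5.84, 6.32 and 6.28 in SIRT7 KO livers and at 5.57, 5.60, 5.82 and 5.46 in WT livers. Each SIRT7 KO value lay above each WT value, though SIRT7 KO array 2 and WT array 3 were almost level. Expression was 1.51-fold higher in SIRT7 KO livers (adjusted p = 0.0757). With 1 array left out, the probe set passed without SIRT7 KO array 2, WT array 3 or WT array 4 (adjusted p of 0.0395, 0.0842 and 0.122), and it did not pass without SIRT7 KO array 1, 3 or 4 or WT array 1 or 2 (adjusted p of 0.153, 0.155, 0.192, 0.193 and 0.153), with differences between 0.53 and 0.72 throughout.

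The brighter Col4a1 probe set (1452035_at) was at 7.94, 7.67, 7.96 and 7.71 in SIRT7 KO livers and at 7.51, 7.59, 7.69 and 6.74 in WT livers. WT array 4 was far below the rest, and WT array 3 lay just above the lowest SIRT7 KO array. The difference was 0.44 ± 0.19 with an adjusted p of 0.329, and 0.23 without WT array 4. The mean of both Col4a1 probe sets gave 0.52 and passed, with an adjusted p of 0.134.

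Col4a2 was at 7.07, 6.62, 7.02 and 7.06 in SIRT7 KO livers and at 6.57, 6.60, 7.12 and 6.25 in WT livers. Its highest value was that of WT array 3, and SIRT7 KO array 2 lay level with WT arrays 1 and 2. The difference was 0.31 ± 0.18 (adjusted p = 0.473), and 0.18 without WT array 4. The chains Col4a3 and Col4a4, known from the basement membrane of the kidney glomerulus, had differences of -0.06 and -0.11, and Col4a5 and Col4a6 of 0.12 and 0.11. Of these, Col4a3, Col4a4 and Col4a5 lay in the lower quartile of brightness in both groups. The dimmer Col4a5 probe set also had all 4 SIRT7 KO values above the 4 WT values, with a difference of 0.16 ± 0.06 and an adjusted p of 0.266.

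The other collagens had no common direction, with 10 positive differences in 21 genes and a median of -0.00261. Within them, all 3 measured chains of type VI collagen had positive differences in their brightest probe sets (median 0.308). Each of these was at an unadjusted p under 0.05. Col6a3, the longest chain of the type VI filament, was at 7.32, 6.53, 7.13 and 6.48 in SIRT7 KO livers and at 6.33, 6.60, 6.41 and 6.11 in WT livers. SIRT7 KO arrays 1 and 3 stood above all WT arrays, and SIRT7 KO arrays 2 and 4 lay just below WT array 2. The difference was 0.50 ± 0.20, 1.42-fold (adjusted p = 0.273), and 0.35 without SIRT7 KO array 1. Col6a1, which was described because its groups did not overlap, was at 5.83, 5.55, 5.98 and 5.56 in SIRT7 KO livers and at 5.41, 5.51, 5.44 and 5.33 in WT livers, a difference of 0.31 ± 0.10 (adjusted p = 0.213). Col6a2 was at 7.15, 7.04, 7.19 and 6.88 in SIRT7 KO livers and at 6.75, 6.88, 6.99 and 6.82 in WT livers. Only SIRT7 KO array 4 lay within the WT range, and the difference was 0.20 ± 0.09 (adjusted p = 0.316). The dimmer Col6a2 probe set gave 0.09 ± 0.09 (adjusted p = 0.699), with groups that overlapped.

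Col18a1 and Col14a1 had values in the opposite direction. Col18a1, the type XVIII collagen that hepatocytes make, was at 11.11, 10.94, 11.22 and 11.09 in SIRT7 KO livers and at 11.30, 11.31, 11.42 and 11.23 in WT livers. The groups did not overlap, but SIRT7 KO array 3 and WT array 4 differed by little. The difference was -0.22 ± 0.08, a 0.856-fold ratio, with an adjusted p of 0.221, and of -0.18 ± 0.11 in the second probe set. When only probe sets above the median brightness were tested, Col18a1 passed at an adjusted p of 0.148. Col14a1, a collagen that binds to the surface of fibrils, was at 8.68, 8.29, 8.24 and 8.43 in SIRT7 KO livers and at 8.54, 8.97, 8.97 and 8.34 in WT livers. WT arrays 2 and 3 were higher than every SIRT7 KO array, and WT arrays 1 and 4 lay among them. The difference was -0.29 ± 0.16 (adjusted p = 0.447), and -0.30 ± 0.15 in the second probe set.

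Col12a1, also of the fibril-binding kind and named here after its values were seen, was at 5.73, 6.06, 5.88 and 5.86 in SIRT7 KO livers and at 5.46, 5.58, 5.58 and 5.74 in WT livers. SIRT7 KO array 1 lay a little below WT array 4, and the other SIRT7 KO arrays lay above all WT arrays. The difference was 0.29 ± 0.09, with the lowest adjusted p of the 36 genes (0.172), and Col12a1 passed without WT array 4 (0.34, adjusted p = 0.135). The membrane-spanning Col13a1 was at 6.19, 6.70, 6.13 and 6.68 in SIRT7 KO livers and at 6.83, 6.54, 6.33 and 6.67 in WT livers, a difference of -0.17 ± 0.16. Col16a1 was at 6.72, 6.63, 6.63 and 6.58 in SIRT7 KO livers and at 6.59, 6.62, 6.34 and 6.70 in WT livers, a difference of 0.08 ± 0.09. The groups overlapped in both, and with 1 array left out the difference of Col13a1 ran from -0.26 (without SIRT7 KO array 2) to -0.07 (without SIRT7 KO array 3) and that of Col16a1 from 0.01 (without WT array 3) to 0.12 (without WT array 4). The remaining 13 genes of the class had differences from -0.16 to 0.16, with adjusted p-values of at least 0.498.

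Several probe sets measure the same gene in 19 of the 36 cases. All differences of a gene had the same sign in 14 of these 19, and in 8 of the 8 whose brightest probe set was above the median brightness. The 5 genes with both signs (Col11a1, Col8a1, Col9a3, Col20a1 and Col22a1) had differences between -0.17 and 0.10. Over all 58 probe sets, 39 differences were positive (67.2%, median 0.0693). Probe sets of one gene share its RNA and are not independent measurements.

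The brighter fibrillar and basement membrane genes were also averaged on each array. The mean of Col1a2, Col3a1, Col5a2 and Col5a3, given relative to the WT mean, was 0.69, 0.24, 0.43 and 0.24 on SIRT7 KO arrays 1 to 4 and -0.08, 0.33, 0.29 and -0.54 on WT arrays 1 to 4. All SIRT7 KO arrays were above the WT mean, yet WT arrays 2 and 3 reached higher than SIRT7 KO arrays 2 and 4. The mean of Col4a1 and Col4a2 was 0.50, 0.14, 0.48 and 0.38 on the SIRT7 KO arrays and 0.03, 0.09, 0.39 and -0.51 on the WT arrays. WT array 4, which the first component set apart, was the lowest of the 8 arrays in 7 of the 12 brighter collagen genes, and SIRT7 KO array 1 was the highest in 5.

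**Figure D4:**
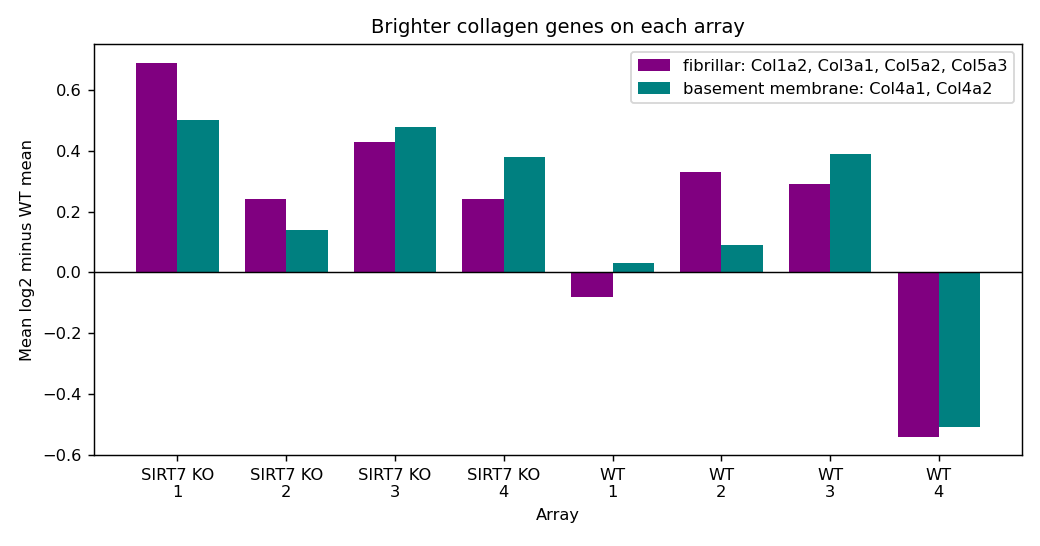
Bars give, for each array, the mean log2 expression of the brighter fibrillar genes (4 genes, purple) and of the brighter type IV genes (2 genes, teal) minus the WT mean of the same genes. SIRT7 KO array 1 is the highest for both sets (0.69 and 0.50), WT array 4 the lowest (-0.54 and -0.51), and WT array 3 (0.29 and 0.39) lies among the SIRT7 KO arrays.

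As a description over the 8 arrays, deviations from the genotype means correlated at r = 0.94 between Col1a2 and Col3a1, at 0.90 between Col6a1 and Col6a3, at 0.85 between Col3a1 and Col4a1, at 0.82 between Col1a2 and Col6a3, at 0.76 between Col4a1 and Col4a2 and at 0.74 between Col6a1 and Col6a2. Values of an array share its RNA and its hybridisation, and these pairs are mostly of bright genes. Col4a1 and Col4a2 lie next to each other on chromosome 8 and Col6a1 and Col6a2 on chromosome 10, with no protein-coding gene between them. The neighbours Col3a1 and Col5a2 on chromosome 1 gave 0.41, and the dim neighbours Col4a3 with Col4a4 and Col4a5 with Col4a6 gave -0.34 and -0.24.

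Collagen chains need many helpers on their way to the matrix, and 69 of 85 listed genes of this pathway were measured. Of them, 5 were higher and 2 lower in SIRT7 KO livers, against 2.17% and 2.48% of all genes. At an unadjusted p under 0.05, 10 of the 69 were higher and 6 lower, against 15.6% of all genes in either direction. With so few members in each list below, any gene that passed is given for its own values and not as a result about its list. Prolyl and lysyl hydroxylases and sugar transferases modify the chains in the endoplasmic reticulum (ER), and 1 of 11 measured genes passed. P4hb, the protein disulfide isomerase that is also a subunit of prolyl 4-hydroxylase, was at 13.65, 13.64, 13.63 and 13.66 in SIRT7 KO livers and at 12.98, 12.97, 13.04 and 13.20 in WT livers. The groups were wide apart, and the rise was 0.59 ± 0.07 (1.51-fold, adjusted p = 0.0136). P4hb lies near Sirt7 on chromosome 11, with 5 protein-coding genes between them, and the part of this position in the result was not tested. The catalytic subunits P4ha1 and P4ha2, named beside it after their values were seen, had differences of -0.26 ± 0.22 and -0.24 ± 0.17 (adjusted p = 0.644 and 0.578).

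Of 9 measured genes of folding and export, 1 was higher and 1 lower. Serpinh1, which encodes HSP47, the chaperone of the collagen triple helix, was at 7.00, 6.90, 7.17 and 7.13 in SIRT7 KO livers and at 6.49, 6.57, 6.56 and 6.57 in WT livers. The groups did not overlap in either of its probe sets, which rose by 0.50 ± 0.08 (adjusted p = 0.0339) and 0.78 ± 0.16 (adjusted p = 0.072). Of the 7 pathway genes past the threshold, P4hb and Serpinh1 passed in 8 of 8 fits with 1 array left out. Mia3, which encodes TANGO1, a receptor that loads procollagen into carriers leaving the ER, was at 10.44, 10.33, 10.29 and 10.35 in SIRT7 KO livers and at 10.70, 10.52, 10.56 and 10.77 in WT livers. In this probe set the groups did not overlap, and the difference was -0.29 ± 0.08 (adjusted p = 0.127). The dimmer Mia3 probe set gave -0.20 ± 0.08 (adjusted p = 0.3), with groups that overlapped.

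Enzymes that trim procollagen or crosslink fibrils, and their helpers, gave 0 higher and 1 lower of 10. At an unadjusted p under 0.05, 2 were higher and 1 lower, against 15.6% of all genes in either direction. The higher ones, named after their values were seen, were Pcolce (0.43 ± 0.13, adjusted p = 0.154) and Tgm2 (0.47 ± 0.15, adjusted p = 0.19). Bmp1, the protease that removes the C-terminal propeptide, was at 7.99, 7.68, 7.86 and 7.97 in SIRT7 KO livers and at 8.28, 8.21, 8.16 and 8.12 in WT livers, a difference of -0.32 ± 0.08 (adjusted p = 0.125), with -0.18 ± 0.14 and -0.06 ± 0.08 in its dimmer probe sets. Among proteins that join type IV collagen in basement membranes, 2 of 14 were higher and 0 lower, against 2.17% and 2.48% of all genes. At an unadjusted p under 0.05, 3 were higher and 1 lower. Beside Nid1 and Lamb1 these were Hspg2 (0.15 ± 0.06, adjusted p = 0.284) and the lower Lama4 (-0.19 ± 0.08, adjusted p = 0.31). The difference largest in size was that of Lama3 (-0.50 ± 0.27, adjusted p = 0.446). Nid1 (nidogen), a linker between laminin and type IV collagen, was at 7.99, 7.92, 7.83 and 7.75 in SIRT7 KO livers and at 7.46, 7.52, 7.60 and 7.21 in WT livers, a rise of 0.43 ± 0.10 (adjusted p = 0.0842), with 0.14 ± 0.07 in its other probe set (adjusted p = 0.379). Lamb1, a laminin chain, was at 6.75, 6.51, 6.68 and 6.58 in SIRT7 KO livers and at 6.41, 6.35, 6.20 and 6.39 in WT livers, a rise of 0.29 ± 0.08 (adjusted p = 0.134) that its dimmer probe sets did not share (0.11 ± 0.10 and -0.07 ± 0.08). In the brightest probe sets of Bmp1, Nid1 and Lamb1 the groups did not overlap.

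Of 17 measured genes of the TGF-beta and PDGF signals that act on stellate cells, 1 was higher, a share close to that of all genes that passed in either direction (4.65%). Ltbp1, which holds latent TGF-beta in the matrix, was at 4.94, 4.74, 4.98 and 5.00 in SIRT7 KO livers and at 4.45, 4.66, 4.36 and 4.68 in WT livers, a rise of 0.38 ± 0.10 (adjusted p = 0.11). Its WT mean of 4.53 lay just under the lower quartile of brightness, where expression cannot be told from background. At an unadjusted p under 0.05, 2 of the 17 were higher and 2 lower. Beside Ltbp1 these were Pdgfa (0.49 ± 0.20, adjusted p = 0.297), Smad4 (-0.21 ± 0.06, adjusted p = 0.163) and Tgfbr1 (-0.23 ± 0.10, adjusted p = 0.305), named after their values were seen. Of 8 collagen receptors, 0 passed in limma, and 1 of them, Cd36, had an unadjusted p under 0.05. Cd36, which also takes up fatty acids, was at 11.31, 11.05, 9.50 and 10.04 in SIRT7 KO livers and at 9.14, 9.78, 9.27 and 8.23 in WT livers, a difference of 1.37 ± 0.43 (adjusted p = 0.181). SIRT7 KO array 3 lay below WT array 2, and the other SIRT7 KO arrays lay above all WT arrays. Ddr2, the discoidin domain receptor for fibrillar collagen, had a difference of -0.13 ± 0.09. With 1 array left out, Mia3 passed in 1 of 8 fits (without WT array 2), Bmp1 in 2 (without SIRT7 KO array 1 or WT array 4), Nid1 in 4 (without SIRT7 KO array 3 or WT array 2, 3 or 4), Ltbp1 in 3 (without SIRT7 KO array 2 or WT array 2 or 4) and Lamb1 in 0, and their highest adjusted p-values were 0.271, 0.269, 0.198, 0.254 and 0.243.

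**Figure D5:**
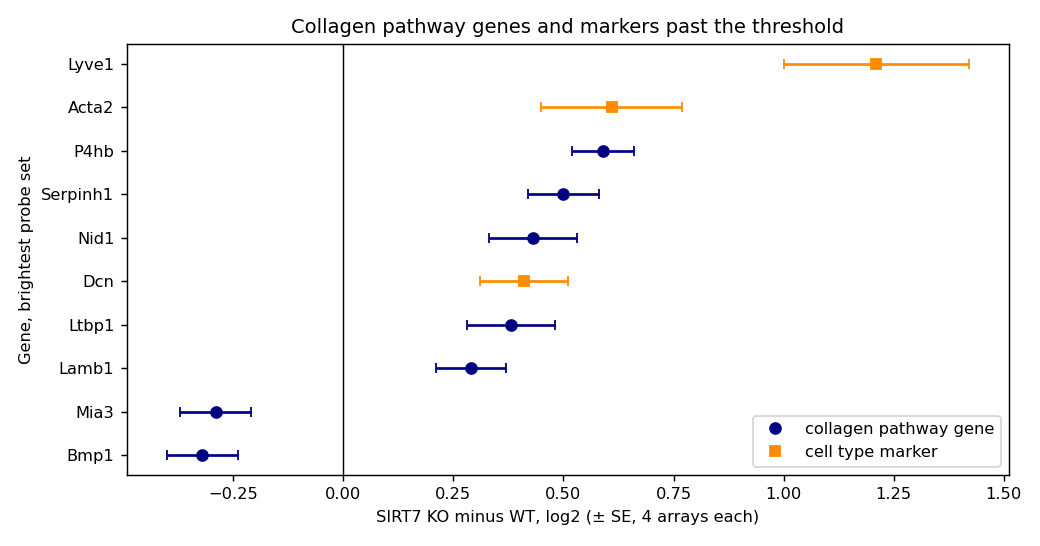
Differences of SIRT7 KO minus WT in log2 expression (x axis, with the SE of the model, 4 arrays each) are shown for the 7 collagen pathway genes (circles) and the 3 cell type markers (squares) that passed an adjusted p of 0.15, by their brightest probe set. P4hb (0.59) and Serpinh1 (0.50) lead the pathway genes, Mia3 (-0.29) and Bmp1 (-0.32) lie below 0, and Lyve1 (1.21) leads the markers.

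Markers of the cells that a liver sample holds were read on the same arrays, and their counts stand against 4.65% of all genes that passed and 49.3% with a positive difference. Of 9 measured markers of stellate cells, 8 had a positive difference and 1 passed, and their mean level ran from 7.55 to 7.86 on the SIRT7 KO arrays and from 7.33 to 7.58 on the WT arrays. At an unadjusted p under 0.05, 2 of them were higher and 1 lower. The lower one was Reln, with a difference of -0.20 ± 0.09 (adjusted p = 0.332). The marker that passed was Dcn (decorin, a proteoglycan that binds collagen fibrils), at 12.43, 12.17, 12.37 and 12.28 in SIRT7 KO livers and at 11.86, 12.15, 11.87 and 11.72 in WT livers, a rise of 0.41 ± 0.10 (adjusted p = 0.103). Of 7 myofibroblast markers, 6 had a positive difference and 1 passed, with mean levels of 5.82 to 6.31 on the SIRT7 KO arrays and 5.57 to 5.79 on the WT arrays. Acta2, the smooth muscle actin of activated stellate cells and of vessel walls, was at 6.73, 6.03, 6.37 and 6.26 in SIRT7 KO livers and at 5.57, 5.85, 6.04 and 5.51 in WT livers, a rise of 0.61 ± 0.16 (adjusted p = 0.128) that its dim second probe set did not share (-0.05 ± 0.08). With 1 array left out, Dcn passed in 2 of 8 fits (without SIRT7 KO array 2 or WT array 2) and Acta2 in 2 (without SIRT7 KO array 2 or WT array 3), with highest adjusted p-values of 0.233 and 0.275.

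Of 8 endothelial markers, 1 passed and 4 had a positive difference, with mean levels of 7.50 to 7.63 on the SIRT7 KO arrays and 7.35 to 7.56 on the WT arrays. It was Lyve1, of sinusoidal endothelium, with a difference of 1.21 ± 0.21 (adjusted p = 0.0463). Differences were negative in Tek (-0.14 ± 0.08), Stab2 (-0.13 ± 0.08), Kdr (-0.09 ± 0.06) and Cdh5 (-0.07 ± 0.12). They were positive in Clec4g (0.15 ± 0.16), Vwf (0.14 ± 0.13) and Pecam1 (0.06 ± 0.11). Among macrophage markers 7 of 7 differences were positive and 0 passed in limma, none of them at an unadjusted p under 0.05 (8.96 to 9.89 on the SIRT7 KO arrays and 8.78 to 9.73 on the WT arrays). None of 6 portal fibroblast and of 5 cholangiocyte markers passed, and 4 and 2 of them had a positive difference. Among the portal fibroblast markers, only Gli1 had an unadjusted p under 0.05, with a difference of -0.20 ± 0.09. The cholangiocyte markers lay between 4.59 and 4.71 on the SIRT7 KO arrays and between 4.63 and 4.66 on the WT arrays. The 7 hepatocyte markers, which show that the tissue is liver, lay between 14.09 and 14.12 on the SIRT7 KO arrays and between 14.16 and 14.26 on the WT arrays. Of these 7, 0 had a positive difference, and 0 passed (1 at an unadjusted p under 0.05). Differences were -0.27 in Hnf4a, -0.17 in Cps1 and -0.14 in Tat. They ran from -0.02 to -0.00 in Apoa2, Ttr, Apoa1 and Alb, whose group means were 14.89 or more. Whether such bright signals were saturated was not tested. The part of these markers in the collagen values was not tested.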

How the data were processed

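The 8 liver RNA samples, 4 labelled SIRT7 KO and 4 labelled WT, were measured on 1 Affymetrix array each, and samples were grouped by the genotype in the labels. The authors deposited log2 expression values, 1 for each probe set and array. They were made by RMA according to the methods of the study and by GCRMA according to the submitters' processing notes, and it is unknown which is right. The version and the genome build are not given in the sources used. Either way summarises the probes of a probe set. Differences at low signals may be compressed, to an extent that is unknown here. With no measure of depth, the number of arrays limits the precision.

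The table held 22690 probe sets. After 64 control probe sets were left out, 22626 were tested. The platform annotation gave a single symbol to 20380 of them, and all 58 collagen probe sets matched the mouse RefSeq gene table by Entrez ID. That table was used only for names and gene order. For each gene, the probe set that was brightest on average over the 8 arrays was taken.

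The genotypes were compared with limma (version 3.58.1, R 4.3.3) through lmFit and eBayes in a model of genotype alone. Tests were two-sided, and p-values of the main fit were adjusted by the Benjamini-Hochberg method across the 22626 probe sets. The threshold was an adjusted p of 0.15, after the false discovery rate in the study's methods. The procedure was tested on simulated data. Alternatives were a threshold of 0.05, eBayes with trend and robust variance, array weights, another quantile normalization, centring arrays on their median, testing only probe sets above the median brightness, the mean of all probe sets of a gene, the replicate number as a block, and leaving out each array in turn. With only the brighter probe sets, or with means of genes, p-values were adjusted across those probe sets or genes, so they are not on the same footing as the main fit. Collagen genes were named with all array values if they passed, if a group mean lay above the median brightness, or if they were Col1a1, Col1a2, Col3a1, Col4a1 or Col4a2. Pathway genes were named if they passed, or else the pair with the smallest p in a list where none did. The members and lists were chosen with earlier results of these data known, and no test was made on a list.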

Additional observations from a re-analysis of the deposited data

Results flagged for a closer look

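In all 58 collagen probe sets and 12 probe sets of the other named genes (140 groups of 4 arrays), the gap of the highest or lowest array to its neighbour was compared with the range of the group, and 5 groups exceeded Dixon's limit for a group of that size. Chance gives about 1 in 20 groups, or 7 of the 140. SIRT7 KO array 2 was low in Col4a2, at 6.62, while the other SIRT7 KO arrays lay between 7.02 and 7.07, and in the dimmer Col6a2 probe set, at 5.76, with a gap to the next array that was a share of 0.841 of the group's range (highest array at 6.05). SIRT7 KO array 3 was high in the dimmer probe sets of Col5a3 (4.37, others 4.01 to 4.03) and Col8a1 (4.16, others 3.80 to 3.85). WT array 4 was high in Col17a1, at 4.46, while the other WT arrays lay between 4.21 and 4.24. The values of Col5a3, Col8a1 and Col17a1 given here lie in the range of dim signals.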

How the results depend on the processing

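The count of 1 collagen probe set was 2 with array weights, 0 at an adjusted p under 0.05 and 0 to 2 with 1 array left out (2 without WT array 4). It was also 1 among the brighter probe sets, but that probe set was of Col18a1 and lower in SIRT7 KO livers. The dimmer Col4a1 probe set, with group means of 6.21 and 5.61, was not tested in that setting. The count of 0 genes was 1 with array weights (Col12a1, adjusted p = 0.11), 1 when only probe sets whose higher group mean was above the median brightness were tested (Col18a1), 2 with the mean of all probe sets of a gene (Col1a1 and Col4a1) and 0 to 1 with 1 array left out. The median difference of 0.0721 was 0.241 over the 12 brighter genes, and 0.0192 (without WT array 2) to 0.086 (without WT array 4) with 1 array left out. Of 28 differences of named genes, only that of Col5a3 changed sign, to -0.04 with array weights and to between -0.12 and 0.14 with 1 array left out. The causes were not tested.

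The labels do not say that the replicate numbers pair animals, so the numbers were not taken as pairs. Same-numbered arrays of both genotypes had deviations that correlated at 0.255, -0.252, -0.163 and 0.145, and differently numbered ones at -0.437 to 0.314. With so few arrays, these values cannot decide whether samples were paired. With the replicate block, 1 collagen probe set passed (Col4a1, adjusted p = 0.115), 0 genes passed, the median difference stayed 0.0721, and Mia3, Bmp1, Lamb1, Ltbp1, Dcn and Acta2 no longer passed (adjusted p of 0.181 to 0.215). Lamb1 also failed with trend and robust variance (0.164), quantile normalization (0.155) and centring (0.153), and Mia3 with centring (0.153). With the mean of all probe sets, Mia3, Bmp1, Lamb1 and Acta2 did not pass (0.165, 0.172, 0.511 and 0.221). Cd36 passed with the block (0.134) and among the brighter probe sets (0.137).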
